A study of Mus musculus with 36 samples.

Results

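The 10 genes described here were followed through every library of a study of mouse embryonic fibroblasts with the Tbk1 N129D allele: Zbp1, Ripk1, Ripk3, Mlkl, Casp8, Casp4, Casp12, Gsdmd, Fas and Tnfsf10. They were chosen by name, as genes of necroptosis, pyroptosis and death receptor signalling, and each matched 1 Ensembl gene, so the set is 10 of the 49585 genes in the deposited tables. Embryonic fibroblasts are mesenchymal cells grown from mouse embryos, and TBK1 is a kinase that phosphorylates IRF3 downstream of nucleic acid sensors. Hom lines carry 2 copies of the N129D knock-in allele (E1.4, E2.2 and E2.9), het lines carry 1 copy (E2.5, E1.3, E2.6 and E2.8), and WT lines carry none (E1.5, E2.1 and E2.7). Each of these 10 lines was given pI:pC for 4 h, given antimycin with oligomycin (AO below) for 4 h, or left untreated, which makes 30 libraries. pI:pC is a synthetic double-stranded RNA, and AO stops mitochondrial ATP production, since antimycin inhibits electron transport at complex III and oligomycin inhibits ATP synthase. Another 6 libraries were made from E1.5, a WT line, at high or low density, with 1 library per density and treatment. The labels name the lines but not the embryo behind each, and they name no further alteration of these cells.

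Necroptosis is a lytic form of cell death in which ZBP1, a sensor of Z-form nucleic acid, or a TNF receptor complex engages the kinases RIPK1 and RIPK3, and RIPK3 phosphorylates MLKL, which then permeabilises the plasma membrane. Caspase-8 cleaves these kinases and so holds necroptosis back, and it is also the initiator caspase of death receptors such as FAS, the receptor of FAS ligand. TRAIL, the product of Tnfsf10, is a death ligand of the TNF family. In pyroptosis a caspase cleaves gasdermin D, the product of Gsdmd, whose fragment forms membrane pores; Casp4 encodes mouse caspase-11, which senses cytosolic lipopolysaccharide. Casp12 lies next to Casp4 in the mouse genome and encodes a caspase linked to endoplasmic reticulum stress. TBK1 itself is known to phosphorylate RIPK1 and restrain its kinase activity, and several of these genes are known targets of interferon signalling.

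In GRCm38, the build the submitters name as mm10, the necroptosis genes lie on 4 chromosomes: Zbp1 on chromosome 2, 173206612 to 173218923, Ripk1 on chromosome 13, 34002363 to 34037147, Ripk3 on chromosome 14, 55784995 to 55788865, and Mlkl on chromosome 8, 111311797 to 111338177. Casp8 lies on chromosome 1, 58795374 to 58847503, Fas on chromosome 19, 34290666 to 34327772 and Tnfsf10 on chromosome 3, 27317028 to 27342427. Gsdmd lies on chromosome 15, 75862327 to 75867408, while Casp4 and Casp12 are neighbours on chromosome 9, 5308828 to 5336783 and 5345430 to 5373032. All 10 are protein-coding, and the values are totals over their exons.

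Library totals were 3689144 to 14879227 counts for the 30 libraries, 16474011 to 22756870 for high-density cells, and 5391393 to 6307963 for low-density cells. All 10 genes passed the filter on low counts, and levels are given as CPM, counts scaled to a common library size with TMM factors. Tnfsf10 had no count in 13 of the 36 libraries and Zbp1 in 7. Between 10 and 12 of the 12 fibroblast markers had counts in each of the 30 libraries (Dcn was at 0 in 1 library and Lum in 3), with a summed level of 8714 to 19049 CPM. The 18 macrophage markers summed to 168 to 274 CPM in the 3 libraries of hom line E2.9 and to 39.2 to 63.3 CPM in those of het line E2.6, against 3.0 to 10.9 CPM in the other 24 libraries; all 18 had a count in untreated E2.9 cells, and in E2.9 Cd163 was at 0 under either treatment. Their part in the results below was not tested; differences between hom and WT lines under pI:pC are also given without E2.9 for Zbp1, Mlkl, Casp4, Casp12, Fas and Tnfsf10. Line E2.5 was the highest het line for Zbp1, Mlkl and Casp4 in all 3 treatments, and its 6 epithelial markers summed to 68.3 to 88.6 CPM, with Krt5 at 0, against at most 33.8 CPM in the other lines; their part in the result was not tested. Tbk1 mRNA stood at 45.1 ± 3.99 CPM in untreated hom lines, 48.8 ± 0.973 CPM in untreated het lines and 45.4 ± 5.59 CPM in untreated WT lines (SD, n = 3, 4 and 3), which does not check the genotype, since the allele changes 1 amino acid.

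Upstream sequences are shown for 4 genes that moved with pI:pC or with density, as the RefSeq table for GRCm38.p6 gives them: the 250 bases before the transcription start, on the gene's strand. The Mlkl window is chr8:111338206-111338455 on the minus strand and the other windows are on the plus strand, at chr3:27316827-27317076, chr9:5308599-5308848 and chr19:34290409-34290658. In the GENCODE annotation the last 21 bases of the Casp4 window and the last 49 of the Tnfsf10 window lie inside the gene, and the other windows lie upstream of it. Capitals mark matches to any of 3 motifs searched on both strands: GAAANNGAA, of the interferon regulatory factor type; TTCNNNGAA, of the STAT type; and GGGANTTCC, of the NF-kB type.
Tnfsf10: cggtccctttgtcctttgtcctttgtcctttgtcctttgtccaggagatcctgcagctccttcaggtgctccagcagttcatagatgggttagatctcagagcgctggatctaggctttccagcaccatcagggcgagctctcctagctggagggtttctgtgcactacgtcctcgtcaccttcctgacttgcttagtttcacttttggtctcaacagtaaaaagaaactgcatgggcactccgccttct
Mlkl: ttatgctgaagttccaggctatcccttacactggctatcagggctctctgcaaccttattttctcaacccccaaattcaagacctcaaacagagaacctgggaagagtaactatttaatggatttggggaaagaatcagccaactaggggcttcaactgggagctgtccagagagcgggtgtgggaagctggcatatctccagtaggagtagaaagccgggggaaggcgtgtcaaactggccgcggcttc
Casp4: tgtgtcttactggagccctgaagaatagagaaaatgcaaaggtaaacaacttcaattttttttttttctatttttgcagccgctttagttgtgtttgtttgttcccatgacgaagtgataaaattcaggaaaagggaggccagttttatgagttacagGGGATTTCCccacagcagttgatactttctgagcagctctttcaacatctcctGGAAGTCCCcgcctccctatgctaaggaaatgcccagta
Fas: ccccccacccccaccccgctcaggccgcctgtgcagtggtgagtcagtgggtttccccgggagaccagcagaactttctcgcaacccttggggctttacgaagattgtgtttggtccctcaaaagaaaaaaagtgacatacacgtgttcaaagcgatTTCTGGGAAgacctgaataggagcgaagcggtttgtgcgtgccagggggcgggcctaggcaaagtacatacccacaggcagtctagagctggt
Casp4 held 2 matches to the NF-kB type motif, with first bases at -92 and -39 from the start, and Fas held 1 match to the STAT type motif, at -93. These letters occur on either strand in 1.68% and 8.30% of all 32851 promoter windows of 300 bases, and the interferon regulatory factor type in 8.56%. Tnfsf10 and Mlkl held none of the 3, which says only that these letters are not in the windows. Casp12 held 2 STAT type matches, at -102 and -36. Ripk1 had 2 windows, and the window upstream of the annotated gene held no match. In the other window the 250 bases before the start lie inside the gene. That window held 1 interferon regulatory factor type match, at -5, and 2 of the STAT type, at -108 and -11. Ripk3 held 1 interferon regulatory factor type match, at 15 on the far side of the start. Casp8 held no match to any of the 3, but the 250 bases before the start in its window also lie inside the annotated gene. In all, the table had windows for 8 of the 10 genes, not for Zbp1 and Gsdmd.

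Per kilobase of exon, Ripk3 and Casp8 were the most abundant of the 10 mRNAs in untreated WT lines. The sensor Zbp1 and the ligand Tnfsf10 were scarce. Levels compared between genes are given on this scale, which counts all annotated exons of a gene, so their order depends on that length. In CPM Ripk1 was highest, at 60.6 ± 2.41, above Casp8 at 44.5 ± 7.89 and Ripk3 at 36.3 ± 8.16 (SD, n = 3). Ripk3 stood at 15.8 ± 3.56 CPM per kb (SD, n = 3) and Casp8 at 15.4 ± 2.73 CPM per kb, which differed by less than either SD. Mlkl at 7.89 ± 1.32, Ripk1 at 7.27 ± 0.289 and Casp12 at 7.15 ± 2.4 CPM per kb followed and lay within the SD of Casp12. Fas stood at 4.73 ± 2.61 and Gsdmd at 3.44 ± 1.45 CPM per kb, again closer than their SDs. Casp4 at 1.13 ± 0.901, Zbp1 at 0.706 ± 0.0524 and Tnfsf10 at 0.0318 ± 0.0283 CPM per kb were lowest. Over the 30 libraries Ripk1 ran from 42.1 to 77.3 CPM and Casp8 from 30.6 to 56.5 CPM, a 1.84-fold range each, whereas Mlkl (6.83 to 88.9 CPM) and Casp4 (0.12 to 34.9 CPM) spanned 13-fold and 290-fold. The lowest Casp4 value was 1 count, in untreated cells of het line E2.6, so the size of its range rests on that count.

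**Figure D1:**
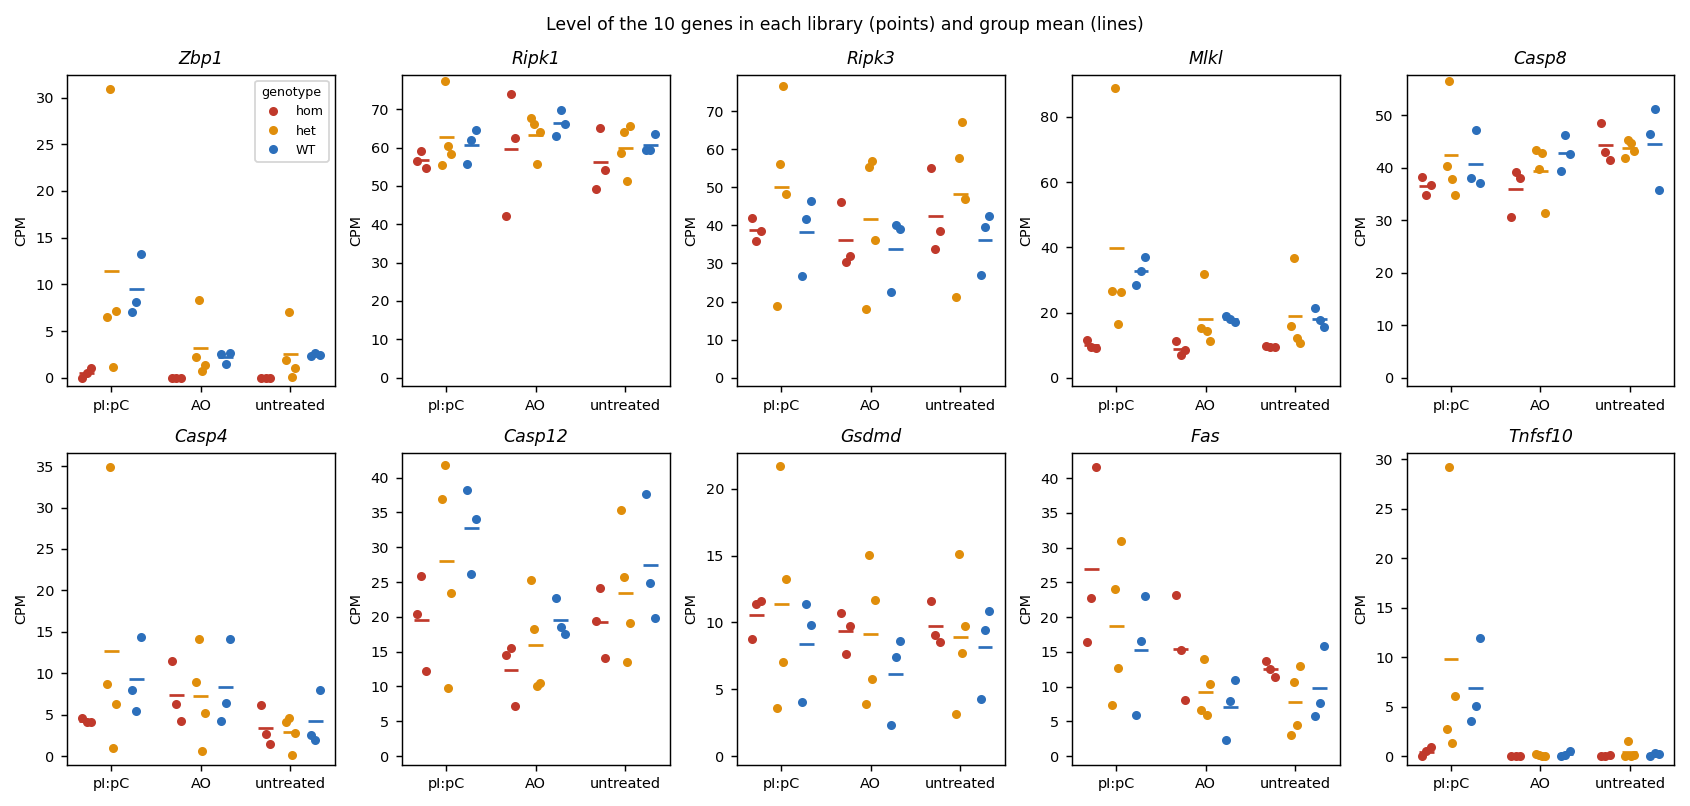
CPM of each gene (y axis) in the 30 libraries without a density label, by treatment and genotype; points are lines, bars are group means (hom n = 3, het n = 4, WT n = 3). Zbp1, Mlkl and Tnfsf10 were near the bottom of their panels in all hom libraries, and 1 het line, E2.5, stood highest for Zbp1, Mlkl, Casp4 and Tnfsf10 under pI:pC.

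The first comparison asks how the genes responded to double-stranded RNA. Under pI:pC the ligand gene Tnfsf10, the sensor gene Zbp1, the executioner gene Mlkl and Casp4 stood higher in every het and WT line, and Fas did in every line of all 3 genotypes. Tnfsf10 had 29.2, 2.77, 1.32 and 6.05 CPM in het lines E2.5, E1.3, E2.6 and E2.8 with pI:pC, against 1.48, 0, 0 and 0.132 CPM untreated. It had 3.54, 5.07 and 11.9 CPM in WT cells of E1.5, E2.1 and E2.7 with pI:pC, against 0, 0.285 and 0.217 CPM untreated. Treated and untreated libraries did not overlap within WT, and in het lines the overlap was between E2.6 with pI:pC and the untreated E2.5 library, at 1.48 CPM. In edgeR's quasi-likelihood test with Benjamini-Hochberg adjustment over 13364 genes, Tnfsf10 rose by 4.75 ± 1.098 on the log2 scale (SE) in het lines (adjusted p = 0.0134) and by 5.19 ± 1.403 in WT lines (adjusted p = 0.0445). Since few other libraries held counts of it, Tnfsf10 passed the filter through these pI:pC libraries. Without the filter on low counts the adjusted p in WT lines was 0.0975, and in a fit of the compared groups alone that in het lines was 0.123. In WT lines, where the untreated libraries held 3 counts in all, the ratio of pooled levels was 36.7 (95% exact counting interval 12.2 to 181). With E1.3 or E2.8 left out the edgeR adjusted p in het lines was 0.0582 or 0.102, with E2.5 left out 0.0177, and in WT lines it was 0.32, 0.232 and 0.326 with E1.5, E2.1 or E2.7 left out, in that order.

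In that test 1 of the 10 genes passed in het lines, where 4.63% of all genes did, and 1 in WT lines, where 3.17% did. Both times it was Tnfsf10, which passed the filter through its pI:pC libraries, so these counts add no support for a response of the set. Treated and untreated libraries come from the same lines, and a fit that takes each line as a replicate block called more. With it 5 of the 10 rose in het lines (17.3% of 13628 genes changed and 8.37% rose) and 4 of 10 in WT lines (15% changed and 6.68% rose). Tnfsf10 is among them in both. The median log2 change of the 10 genes in the fit without the block was 0.73 in het and 0.45 in WT lines, against 0.00 and 0.01 over all genes.

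Zbp1 was at 30.9, 6.52, 1.15 and 7.18 CPM in the 4 het lines with pI:pC, against 7.02, 1.95, 0.12 and 1.05 CPM untreated. In WT lines it was at 7.08, 8.11 and 13.3 CPM with pI:pC, against 2.38, 2.71 and 2.39 CPM untreated. Every het and WT line was higher when treated, though het lines ranged widely. With the block Zbp1 rose by 2.19 ± 0.27 (log2, SE; edgeR adjusted p = 3.19e-05) in het lines and by 1.83 ± 0.29 (adjusted p = 0.000641) in WT lines, where the adjusted p without the block was 0.191 and 0.379.

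Mlkl, which encodes the pore-forming effector of necroptosis, had 88.9, 26.6, 16.6 and 26.5 CPM in het lines with pI:pC, against 36.6, 15.9, 12.1 and 10.8 CPM untreated. In WT lines it had 28.5, 32.8 and 37 CPM with pI:pC, against 21.4, 17.7 and 15.4 CPM untreated, without overlap. In the blocked fit it rose by 0.98 ± 0.16 in het lines (log2, SE; edgeR adjusted p = 0.000187) and by 0.82 ± 0.18 in WT lines (adjusted p = 0.00464); without the block the adjusted p was 0.132 and 0.374. The blocked adjusted p in WT lines was 0.0553 without E2.1 and 0.0929 without E2.7.

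Casp4, the gene of the lipopolysaccharide-sensing caspase, had 34.9, 8.74, 0.988 and 6.24 CPM in het lines with pI:pC, against 4.62, 4.06, 0.12 and 2.76 CPM untreated, and 8.0, 5.47 and 14.4 CPM in WT lines with pI:pC, against 2.54, 1.99 and 8.04 CPM untreated. Each line was higher when treated, but lines differed more from each other than treated from untreated cells, so the groups overlapped. In the blocked fit the rise was 1.895 ± 0.31 in het lines (log2, SE; edgeR adjusted p = 0.000265) and 1.26 ± 0.34 in WT lines (adjusted p = 0.0163), against adjusted p = 0.163 and 0.609 without the block. In WT lines the blocked adjusted p was 0.168, 0.0853 and 0.0521 with E1.5, E2.1 or E2.7 left out.

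Fas, the death receptor gene, had 24.1, 7.35, 12.7 and 31 CPM in het lines with pI:pC, against 10.7, 3.01, 4.44 and 13 CPM untreated, a rise of 1.26 ± 0.31 with the replicate block (log2, SE; edgeR adjusted p = 0.00844, 0.199 without the block). It had 5.9, 16.6 and 23.1 CPM in WT lines with pI:pC, against 5.72, 7.69 and 15.9 CPM untreated, and the blocked change of 0.59 ± 0.37 did not pass (adjusted p = 0.297). Both groups overlapped with their untreated libraries. Ripk1, Ripk3, Casp8, Gsdmd and Casp12 passed in no genotype under pI:pC with or without the block, and their blocked log2 changes lay between -0.27 and 0.28.

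In hom lines none of the 10 genes passed under pI:pC in edgeR without the block, where 1.26% of all genes did; none was under an unadjusted p of 0.05 and DESeq2 called none. The median log2 change was 0.10, against 0.00 over all genes. Tnfsf10 had 0, 0.484 and 0.89 CPM in hom cells of E1.4, E2.2 and E2.9 with pI:pC, against 0, 0 and 0.126 CPM untreated. Mlkl had 11.7, 9.43 and 9.26 CPM with pI:pC, against 9.86, 9.41 and 9.57 CPM untreated, and Casp4 had 4.56, 4.11 and 4.09 CPM with pI:pC, against 6.16, 2.63 and 1.51 CPM untreated. Treated hom libraries thus overlapped untreated ones for Mlkl and Casp4, and 1 treated line held no Tnfsf10 count.

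With the replicate block 2 of the 10 genes rose in hom lines, against 9.27% of all genes that changed and 5.42% that rose. Fas had 16.4, 22.7 and 41.7 CPM with pI:pC, against 13.7, 12.5 and 11.3 CPM untreated, a rise in each hom line of 1.09 ± 0.33 (log2, SE; edgeR adjusted p = 0.0428). Zbp1 had 0, 0.484 and 1.07 CPM with pI:pC, against no count in any untreated hom library. From its 8 pooled counts it was at least 3.68-fold higher with pI:pC, taking a floor of 3 counts for the untreated group as a whole, and its blocked adjusted p was 0.0151 in edgeR. Without E2.9 the blocked adjusted p was 0.297 for Fas and 0.247 for Zbp1, and without E2.2 0.115 and 0.054.

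The responses were also set against each other. No gene of the 10 was called for a difference in its pI:pC response between hom and WT or het and WT lines, with or without the block. DESeq2 called none either. Since 0% of all genes were called, these tests do not show that the responses were equal. At an unadjusted p under 0.05 there were 2 of the 10 (Mlkl and Zbp1) between hom and WT lines with the block, and 776 of all 13628 genes. Without the block there were none of the 10, and 156 of 13364 genes. Between het and WT lines there were none of the 10 in either fit. With the block the Mlkl response in hom lines differed from that in WT lines by -0.75 ± 0.28 on the log2 scale (SE; unadjusted p = 0.0138, edgeR adjusted p = 0.795), that of Casp4 -0.88 ± 0.50 (adjusted p = 0.795) and that of Fas 0.49 ± 0.49 (adjusted p = 0.874). The Zbp1 response in hom lines starts from no count, so no difference is given for it, and its place among the 2 carries the same limit.

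**Figure D2:**
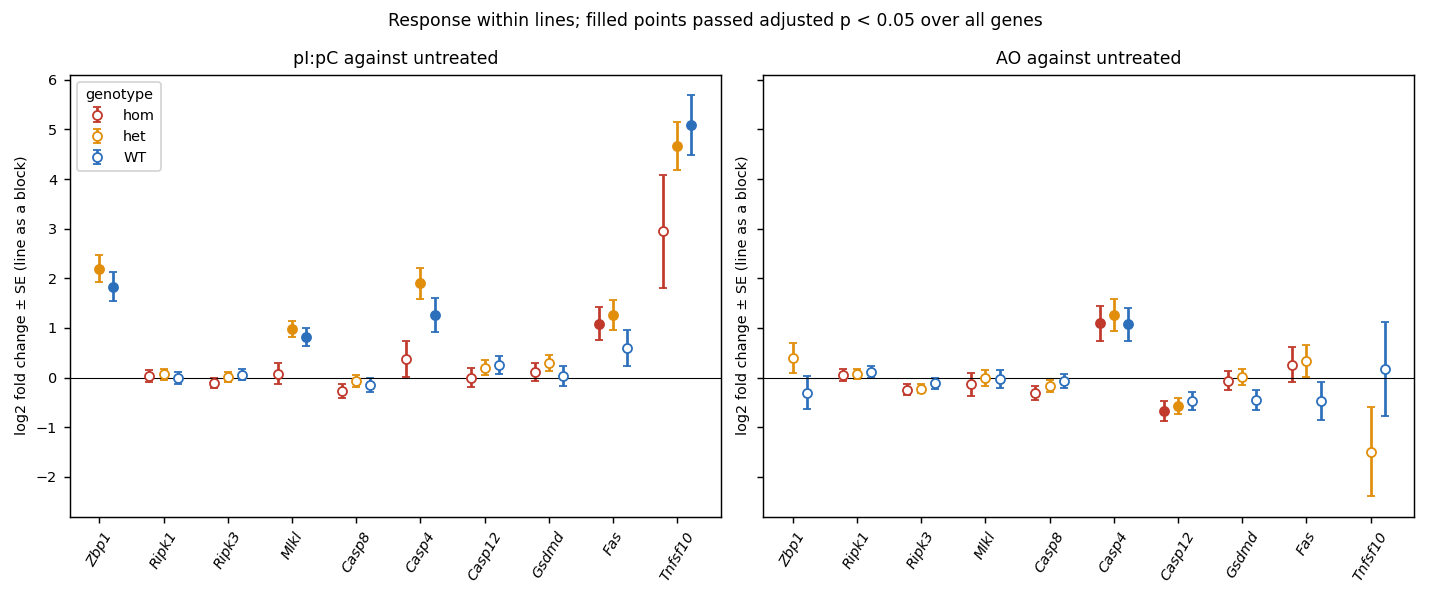
Log2 fold change ± SE (y axis) of each gene under pI:pC (left) and AO (right) against untreated cells, fitted with the line as a replicate block, in hom, het and WT lines; filled points passed an edgeR adjusted p under 0.05, and a gene with no count in 1 of the 2 hom groups is left out. Zbp1, Mlkl, Casp4 and Tnfsf10 rose in het and WT lines under pI:pC, and Casp4 rose in all 3 genotypes under AO.

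The next comparison asks how the genes responded to the mitochondrial inhibitors. Under AO, Casp4 was higher and Casp12 lower in every line of all 3 genotypes, although neither passed without the replicate block. In that fit 0 of the 10 genes passed in hom, het and WT lines, where 13%, 11.1% and 7.65% of all genes did, none was under an unadjusted p of 0.05 and DESeq2 called none. The median log2 change was -0.08 over 8 genes with counts in hom lines, -0.01 in het lines and -0.07 in WT lines, against 0.00, -0.04 and -0.02 over all genes. With the block 2 of the 10 passed in hom, 2 in het and 1 in WT lines, against 28.4%, 26.8% and 22% of all genes, so the share was not above the background.

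Casp4 had 11.5, 6.3 and 4.2 CPM in hom lines with AO, against 6.16, 2.63 and 1.51 CPM untreated. It had 14.2, 8.88, 0.59 and 5.21 CPM in het lines with AO, against 4.62, 4.06, 0.12 and 2.76 CPM untreated. It had 4.27, 6.43 and 14.1 CPM in WT lines with AO, against 2.54, 1.99 and 8.04 CPM untreated. The ratio of treated to untreated cells within a line ran from 1.68 to 4.91 over the 10 lines, while the groups overlapped. The ratio of 4.91 was that of E2.6 and rests on 4 counts with AO against 1 untreated. In the blocked fit Casp4 rose by 1.09 ± 0.35, 1.25 ± 0.32 and 1.07 ± 0.33 (log2, SE) in hom, het and WT lines, with edgeR adjusted p = 0.0231, 0.00588 and 0.0238.

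Casp12 had 14.4, 15.5 and 7.26 CPM in hom lines with AO, against 19.5, 24.2 and 14.1 CPM untreated. It had 18.3, 25.3, 10.02 and 10.4 CPM in het lines with AO, against 25.7, 35.3, 13.4 and 19.1 CPM untreated. It had 22.7, 18.5 and 17.5 CPM in WT lines with AO, against 37.6, 24.9 and 19.8 CPM untreated. Each line was lower when treated, by ratios of 0.515 to 0.887. The blocked change was -0.68 ± 0.21, -0.57 ± 0.16 and -0.48 ± 0.18 (log2, SE), with edgeR adjusted p = 0.0171, 0.0123 and 0.061, so WT lines did not pass. Leaving out a line ended these calls in hom lines, where the blocked adjusted p without E2.9 was 0.0705 for Casp4 and 0.12 for Casp12, and without E2.2 0.0997 and 0.0736. For Casp12 in het lines it was 0.0907 without E2.8, and for Casp4 in WT lines 0.0575, 0.242 and 0.0788 with E1.5, E2.1 or E2.7 left out.

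For neither gene was a difference in AO response between genotypes called, in tests that called no gene at all and so do not show equal responses. The Casp4 response differed by 0.02 ± 0.48 between hom and WT lines and by 0.18 ± 0.46 between het and WT lines (log2, SE, block; edgeR adjusted p = 1 and 1), and the Casp12 response by -0.20 ± 0.27 and -0.09 ± 0.24 (adjusted p = 1 and 1). None of the 10 genes passed such a test in edgeR in either fit or in DESeq2, none was under an unadjusted p of 0.05, and 0% of all genes passed.

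The N129D comparison asks how levels differed between hom and WT lines in the same treatment. Zbp1 and Mlkl were lower in hom lines, without overlap, in all 3 treatments, yet neither passed in edgeR over all 13364 genes. Zbp1 had no count in any hom library untreated or with AO, against 2.38, 2.71 and 2.39 CPM in untreated WT lines and 2.53, 1.49 and 2.63 CPM in WT lines with AO. From pooled counts it was at least 20.1-fold lower in untreated hom lines and at least 8.74-fold lower with AO, with a floor of 3 counts for all hom libraries together. Under pI:pC it had 0, 0.484 and 1.07 CPM in hom lines, against 7.08, 8.11 and 13.3 CPM in WT lines, a log2 difference of -4.23 ± 1.27 (SE), and of -5.55 ± 1.73 without E2.9. The edgeR adjusted p was 0.903 untreated, 0.322 under pI:pC and 0.419 under AO, with unadjusted p = 0.0022, 0.00337 and 0.00943. DESeq2 gave Zbp1 an adjusted p = 0.0217 untreated, 0.0416 under pI:pC and 0.113 under AO. In these bulk samples, fewer cells that express a gene and less RNA per cell cannot be told apart.

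Mlkl had 9.86, 9.41 and 9.57 CPM in untreated hom lines, against 21.4, 17.7 and 15.4 CPM in WT lines. Under pI:pC it had 11.7, 9.43 and 9.26 CPM in hom lines, against 28.5, 32.8 and 37 CPM in WT lines. Under AO it had 11.2, 6.83 and 8.6 CPM in hom lines, against 19, 18.1 and 17 CPM in WT lines. All 9 hom libraries thus lay below all 9 WT libraries. The log2 difference was -0.92 ± 0.48 untreated, -1.68 ± 0.49 under pI:pC and -1.02 ± 0.49 under AO (SE; edgeR adjusted p = 0.976, 0.224 and 0.46). In a fit of the 2 compared groups alone, which leaves out the widely spread het lines, it was -1.695 ± 0.17 under pI:pC and passed (edgeR adjusted p = 0.00397). Without E2.9 the Mlkl difference was -0.93 ± 0.58 untreated, -1.61 ± 0.60 under pI:pC and -1.01 ± 0.61 under AO (log2, SE).

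Tnfsf10 under pI:pC had 0, 0.484 and 0.89 CPM in hom lines, against 3.54, 5.07 and 11.9 CPM in WT lines, without overlap (-3.93 ± 1.26, log2, SE, edgeR adjusted p = 0.411). Without E2.9 the difference was -5.05 ± 1.73. Since Tnfsf10 passed the filter on low counts through its het and WT pI:pC libraries, this difference is no independent support. Casp4 under pI:pC had 4.56, 4.11 and 4.09 CPM in hom lines, against 8.0, 5.47 and 14.4 CPM in WT lines, also without overlap (-1.11 ± 0.97, edgeR adjusted p = 1). The Casp4 groups overlapped untreated and with AO. Casp12 stood at 20.5, 25.9 and 12.3 CPM in hom lines with pI:pC, against 38.2, 26.2 and 34.1 CPM in WT lines, and its groups did not overlap with AO either. E2.9 was the lowest hom line for Casp12 in all 3 treatments. Without E2.9 the log2 difference under pI:pC was -0.50 ± 0.47 for Casp12, against -0.75 ± 0.44 with it, and -1.08 ± 1.15 for Casp4.

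Counted over the set, hom libraries lay below all WT libraries for 2 of the 10 genes untreated, 5 under pI:pC (Zbp1, Mlkl, Casp4, Casp12 and Tnfsf10) and 4 under AO (Zbp1, Mlkl, Casp8 and Casp12), where 4.78%, 5.46% and 5.19% of all genes did so. Tnfsf10 passed the filter on low counts through its het and WT pI:pC libraries, so its place among the 5 adds no support. No gene of the 10 lay above, against 4.6%, 5.24% and 3.93% of all genes. Ripk1, Ripk3, Gsdmd and Fas overlapped in all 3 treatments; Fas was the only one of the 10 with a log2 difference over 0.6 towards hom lines, 0.84 ± 0.61 under pI:pC and 1.08 ± 0.62 under AO (SE), and did not pass (edgeR adjusted p = 1 and 0.516). Without E2.9 the Fas difference was 0.38 ± 0.67 under pI:pC and 1.396 ± 0.68 under AO.

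The test itself called 0 of the 10 genes in edgeR in any of the 3 treatments, where 0.015% of all genes passed untreated, 0.187% under pI:pC and 0% under AO. At an unadjusted p under 0.05 there were 1 untreated, 3 under pI:pC and 2 under AO, against 413, 555 and 1445 of all 13364 genes. Tnfsf10 was among the 3 under pI:pC (edgeR unadjusted p = 0.00495) and enters the median given below. It passed the filter through its het and WT pI:pC libraries, so its part in both adds no support. DESeq2 called 1, 1 and 0, against 0.152% of all genes untreated and 0.76% under pI:pC, and the fit of the compared groups alone called 1 under pI:pC, against 0.931%. The median log2 difference of the 10 genes was -0.18, -0.46 and -0.17, counting genes at 0 at their bound, against 0.01, 0.02 and 0.01 over all genes.

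**Figure D3:**
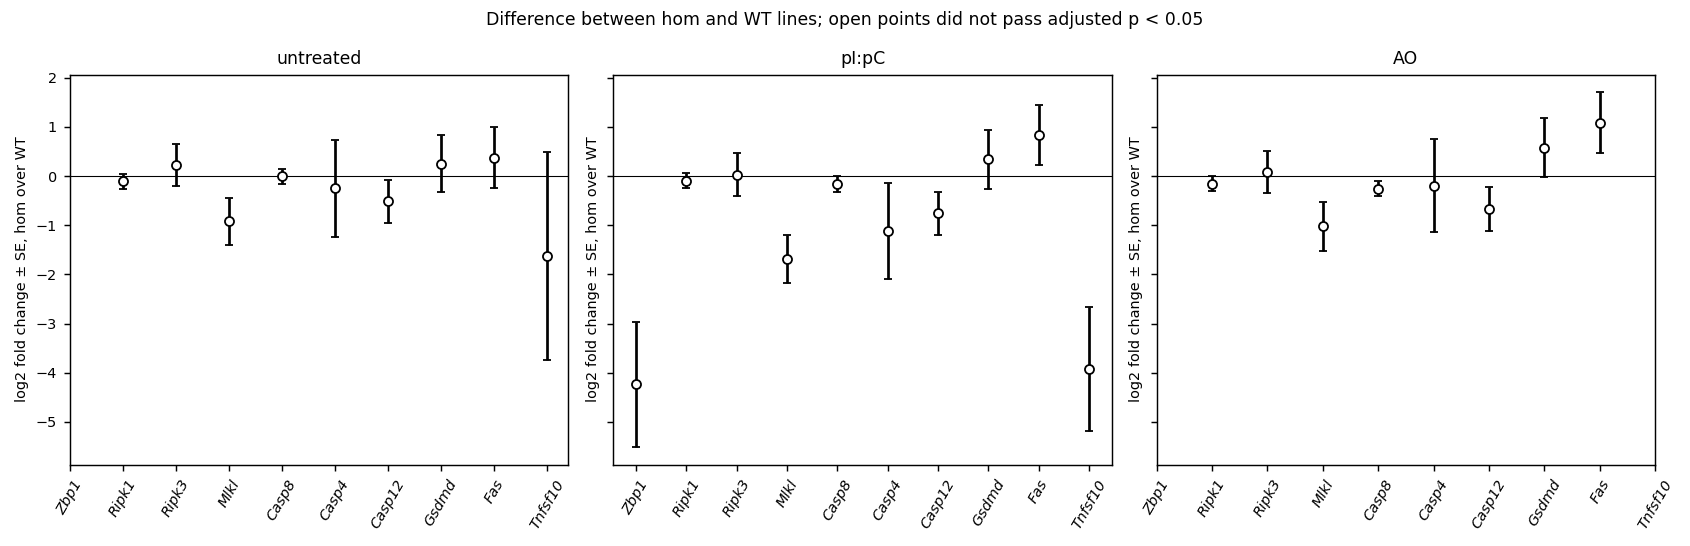
Log2 fold change ± SE (y axis) of hom over WT lines for each gene in untreated, pI:pC and AO libraries (n = 3 lines per genotype); no point passed an edgeR adjusted p under 0.05, and genes with no count in the hom group are left out. Mlkl lay below 0 in all 3 panels, while Ripk1, Ripk3 and Casp8 reached at most 0.25 in size.

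Het lines were scattered around the WT lines. None of the 10 genes passed between het and WT lines in edgeR or DESeq2 in any treatment, none was under an unadjusted p of 0.05, and 0% of all genes passed. Untreated Mlkl had 36.6, 15.9, 12.1 and 10.8 CPM in het lines E2.5, E1.3, E2.6 and E2.8, and untreated Zbp1 had 7.02, 1.95, 0.12 and 1.05 CPM. For both genes E2.5 lay above, and E2.6 and E2.8 below, every untreated WT library. Without E2.5 the Mlkl difference from WT lines was -0.50 ± 0.20 untreated and -0.50 ± 0.20 under pI:pC (log2, SE; edgeR adjusted p = 1 and 1), against 0.04 ± 0.44 and 0.28 ± 0.43 with it, so the sign turned with E2.5 left out. Ripk3 varied with line in another order, at 57.7, 21.2, 67.2 and 46.8 CPM in the same 4 untreated het lines, lowest in E1.3 and highest in E2.6.

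The remaining genes of these pathways were read from 4 lists of 87 genes, of which 64 were tested. Under pI:pC, 7 rose and none fell in het lines, 5 rose and 2 fell in WT lines and 1 rose in hom lines, where 4.63%, 3.17% and 1.26% of all genes passed, so the hom count was near the share over all genes. Tnfaip3, which encodes the ubiquitin-editing inhibitor A20 of TNF signalling, rose in all 3 genotypes, by 2.48 ± 0.50 in hom, 2.86 ± 0.44 in het and 2.42 ± 0.50 in WT lines (log2, SE). Tnf, the gene of the cytokine itself, had no count in any untreated library and rose at least 16.8-fold in het and at least 7.76-fold in WT lines. In hom lines it was at least 6.43-fold higher and passed with the replicate block (edgeR adjusted p = 0.0242). The AO libraries held 3 Tnf counts in hom, 2 in het and 2 in WT lines, so Tnf passed the filter through its pI:pC libraries. Its calls, which are included in the counts of list genes that rose, are therefore no support for a response. The guanylate-binding protein gene Gbp5 rose by 5.48 ± 0.85 and 5.604 ± 1.04 and Gbp2 by 3.62 ± 0.75 and 3.17 ± 0.85 in the same order. Both passed in hom lines with the block: Gbp2 rose by 2.76 ± 0.43 (edgeR adjusted p = 0.00099), and Gbp5, with 2 counts in untreated hom libraries, had a pooled ratio of 49.6 (95% exact counting interval 13.3 to 418; adjusted p = 7.07e-05). Gm12250 rose by 4.22 ± 0.99 and 4.72 ± 1.28, while the interferon regulatory factor gene Irf2 (1.36 ± 0.25) and Rnf31, a subunit of the linear ubiquitin ligase (0.61 ± 0.18), passed in het lines. In WT lines Apaf1, the apoptosome scaffold gene, fell by 0.80 ± 0.19 and the phosphatase gene Ppm1b fell by 0.40 ± 0.10.

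With the block 65 of these genes were tested, and under pI:pC 7 rose and 2 fell in hom lines, 16 rose and 6 fell in het lines, and 16 rose and 5 fell in WT lines, against 9.27%, 17.3% and 15% of all genes that changed. Tlr3, the endosomal double-stranded RNA receptor, then rose by 2.38 ± 0.20 in het and 2.34 ± 0.23 in WT lines, Gbp3 by 2.11 ± 0.38, 2.01 ± 0.21 and 1.69 ± 0.23 in hom, het and WT lines, and Birc3, the gene of the ubiquitin ligase cIAP2, by 1.07 ± 0.25 in hom lines (log2, SE). Between hom and WT lines under pI:pC 1 of the 64 genes passed, where 0.187% of all genes did. This was Adar, whose RNA-editing product restrains ZBP1, and it was lower in hom lines (-1.78 ± 0.36, edgeR adjusted p = 0.0387). None passed between these genotypes untreated or under AO, where 0.015% and 0% of all genes did, so these counts are no result about the lists.

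Under AO, 4 of the 64 rose and 3 fell in hom lines, 5 rose and 3 fell in het lines and 4 rose and 1 fell in WT lines. These shares were close to the 13%, 11.1% and 7.65% of all genes that passed, so the counts are no result about the lists. The TWEAK receptor gene Tnfrsf12a rose by 1.12 ± 0.21, 0.83 ± 0.18 and 1.06 ± 0.21 (log2, SE) in hom, het and WT lines and the kinase gene Chuk by 0.57 ± 0.10, 0.51 ± 0.09 and 0.59 ± 0.10. Tab2, an adaptor of the kinase TAK1, rose by 0.58 ± 0.14, 0.53 ± 0.12 and 0.50 ± 0.14, and Spata2, which links CYLD to the TNF receptor complex, by 0.67 ± 0.13 in het and 0.71 ± 0.14 in WT lines. Casp6, an effector caspase gene, fell in all 3 genotypes, by 1.18 ± 0.27, 0.83 ± 0.22 and 1.05 ± 0.26. Casp9, the apoptosome caspase gene, changed by -0.90 ± 0.26 in hom and -0.71 ± 0.22 in het lines, Ikbkg, the gene of the NEMO subunit of the IKK complex, by -0.54 ± 0.12 and -0.48 ± 0.10, and Bid, which carries the death receptor signal to mitochondria, by 0.69 ± 0.21 and 0.56 ± 0.18. The blocked fit had 12 rises and 15 falls in hom lines, 8 and 15 in het lines and 7 and 12 in WT lines, against 28.4%, 26.8% and 22% of all genes that changed.

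The density libraries ask how levels differed with the crowding of the culture. In WT line E1.5, 6 of the 10 genes were higher at high than at low density in edgeR over 12491 genes, and none was lower, where 17.6% of all genes passed and 8.98% were higher. These are 3 libraries per density from 1 line, 1 per treatment, and high-density libraries were also the more deeply sequenced; the part of depth in the result was not tested. Casp4 had 4.46 CPM untreated, 22 CPM with pI:pC and 11.8 CPM with AO at high density, against 0.471, 1.21 and 2.15 CPM at low density. Zbp1 had 6.56 CPM untreated, 30.1 CPM with pI:pC and 4.45 CPM with AO at high density, against 1.41, 2.63 and 0.359 CPM at low density. Tnfsf10 had 0.619 CPM untreated, 17.6 CPM with pI:pC and 0.202 CPM with AO at high density, against 0.157, 1.21 and 0 CPM at low density. With AO this was 4 counts against 0, in libraries of 19187664 and 5636264 counts, too few to set a direction apart from depth. The 3 high-density libraries were above the low-density library of the same treatment for each of these genes, by 3.22 ± 0.29 for Casp4, 3.07 ± 0.30 for Zbp1 and 3.66 ± 0.46 for Tnfsf10 (log2, SE; edgeR adjusted p = 1.75e-06, 4.34e-06 and 6.41e-05). Tnfsf10 passed the filter through its pI:pC libraries and could not be tested without them.

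Mlkl had 24.1 CPM untreated, 48.7 CPM with pI:pC and 24 CPM with AO at high density, against 16.3, 22.4 and 16 CPM at low density. Casp12 had 42 CPM untreated, 60.6 CPM with pI:pC and 32 CPM with AO at high density, against 24, 21.8 and 19.2 CPM at low density. Fas had 5.36 CPM untreated, 11.3 CPM with pI:pC and 5.67 CPM with AO at high density, against 1.57, 6.27 and 2.33 CPM at low density. Mlkl was higher at high density by 0.77 ± 0.13, Casp12 by 1.01 ± 0.13 and Fas by 1.19 ± 0.29 (log2, SE; edgeR adjusted p = 0.000725, 0.000197 and 0.0127), each in all 3 treatments. For Fas the adjusted p was 0.0548 without the AO libraries, and the other calls held when any treatment was left out, Tnfsf10 without pI:pC excepted. Ripk3 (-0.15 ± 0.13), Ripk1 (0.20 ± 0.07), Casp8 (0.26 ± 0.09) and Gsdmd (0.52 ± 0.23) did not pass. The E1.5 libraries with no density label lay between the 2 densities for Zbp1, Mlkl and Casp4 in all 3 treatments. The median log2 difference was 0.89, against 0.01 over all genes. Of the 61 tested genes of the 4 lists 17 were higher and 3 lower, against 17.6% of all genes that passed, among them Gbp3 (2.39 ± 0.09), Gbp5 (3.81 ± 0.24), Tlr3 (2.56 ± 0.25) and the TNF receptor genes Tnfrsf1b (0.75 ± 0.08) and Tnfrsf1a (0.54 ± 0.07).

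**Figure D4:**
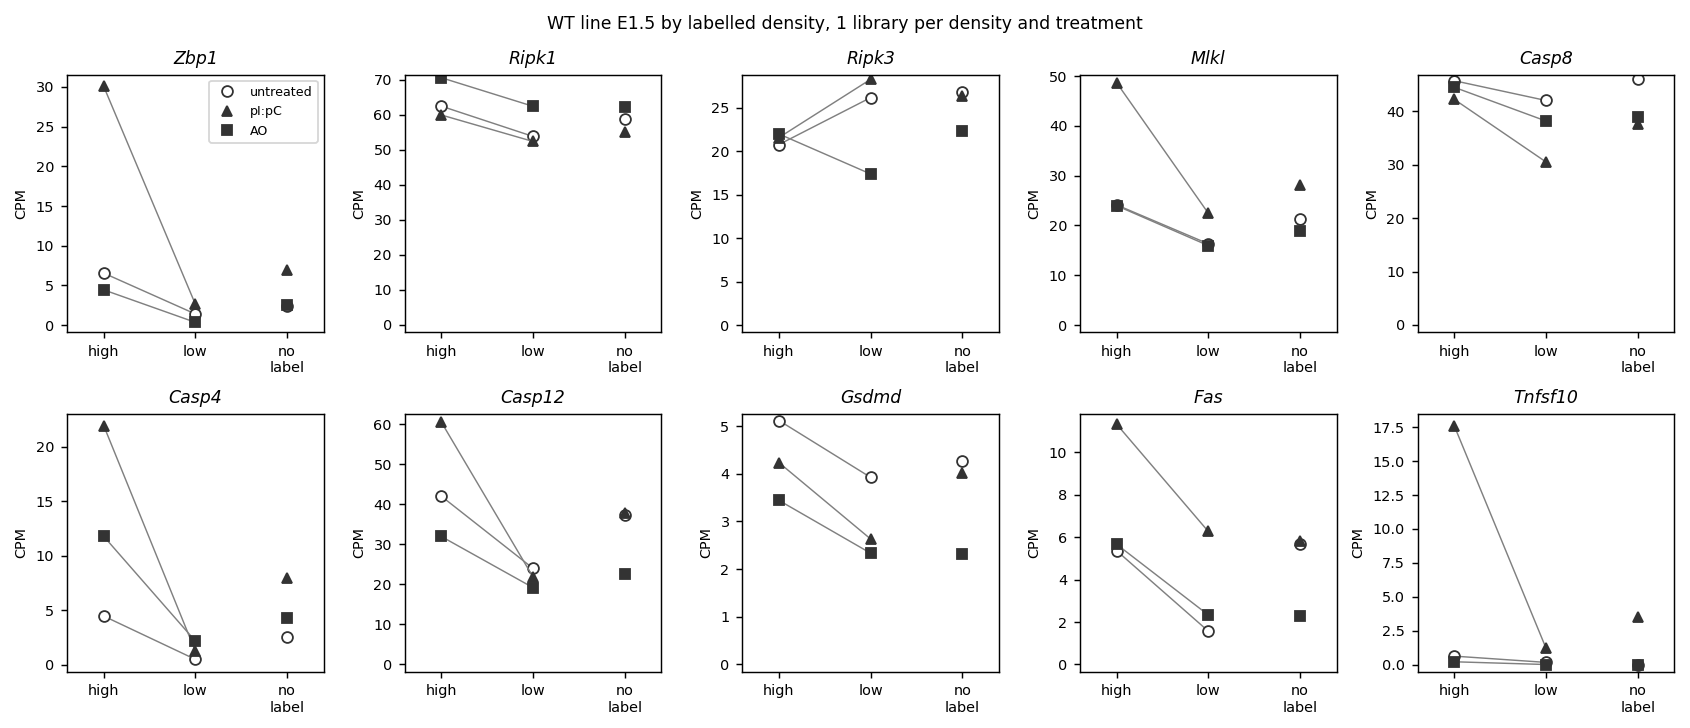
CPM of each gene (y axis) in WT line E1.5 at high density, at low density and without a density label (1 library per point); symbols are treatments, and lines join the high- and low-density libraries of 1 treatment. Zbp1, Mlkl, Casp4, Casp12 and Fas were higher at high density in each treatment. Tnfsf10 was too, but under AO by 4 counts against 0, and Ripk3 changed direction between treatments.

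Over the 30 libraries the most alike pair of genes lay within a single pathway, while other alike pairs crossed pathways. Zbp1 and Mlkl, sensor and executioner of necroptosis, were the most alike pair, with a Pearson r of 0.92 for log2 CPM, followed by Mlkl with Tnfsf10 (0.78), Gsdmd with Fas (0.78) and Zbp1 with Tnfsf10 (0.77). Ripk3 had an r of 0.70 with Gsdmd, of 0.13 with Mlkl, the gene of its substrate, and of -0.03 with Zbp1. These values describe 30 libraries that share 10 lines, and no p is attached. Tnfsf10 passed the filter through its pI:pC libraries and held few counts elsewhere. Its r with genes that rose under pI:pC is therefore no support for a shared pattern. Among all 13364 genes the 3 with the highest r were Ddx58 (0.976), Irf7 (0.975) and Xaf1 (0.972) for Zbp1, Ube2l6 (0.954), Ifi211 (0.947) and Tap1 (0.947) for Mlkl and Cxcl11 (0.965), Socs1 (0.946) and Cxcl9 (0.944) for Tnfsf10. For the caspases they were Arid5a (0.848), H2-K1 (0.832) and Pim1 (0.826) for Casp4, Tnfrsf1b (0.893), Tmtc4 (0.876) and Arntl2 (0.86) for Casp12 and Cenpj (0.737), Nhsl1 (0.681) and Gk5 (0.666) for Casp8. The 3 nearest to Ripk3 were Mgll (0.938), Jph2 (0.911) and Etl4 (0.888), and those nearest to Ripk1 were Efr3a (0.82), Abcb1a (0.808) and Lysmd3 (0.803). Gsdmd was nearest to Bmper (0.886), Mbp (0.858) and Anxa8 (0.837), and Fas to Sod2 (0.822), Pcx (0.819) and Ebp (0.812). The lists of the 10 genes shared no name.

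**Figure D5:**
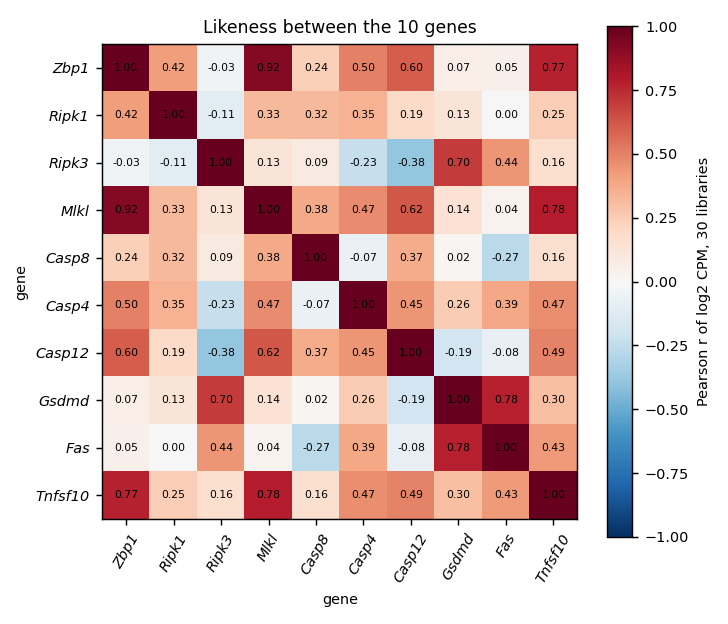
Pearson r of log2 CPM between each pair of the 10 genes over the 30 libraries without a density label (colour and printed value; both axes list the genes). The pair Zbp1 and Mlkl had the highest value, 0.92, and Gsdmd with Fas reached 0.78.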

How the data were processed

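RNA of cultured embryonic fibroblasts was isolated on RNeasy columns and made into stranded poly(A) libraries, per the labels' protocols. STAR, RSEM and mm10 are named without versions, per the submitters' processing notes; whether counting used strand is not given in the sources used here. Each library has a deposited table of expected counts, which the authors did not normalise and which were rounded to whole numbers here. GENCODE vM21 (GRCm38) gave names and coordinates for 49326 of 49585 genes. Serpinb6a and pseudogenes overlap Ripk1, whose counts were not whole in 20 libraries, as were those of Casp8 in 29, so these 2 are less certain.

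The 30 libraries without a density label were fitted in edgeR 4.0.16 (R 4.3.3) with TMM, filterByExpr (minimum count 10) and 1 coefficient per group, with a robust quasi-likelihood F test and Benjamini-Hochberg adjustment at 0.05. SE is the log2 change divided by the root of F. The 9 libraries of E1.5 were fitted with treatment and density. The labels name separate lines for replicates and the same line in each treatment; deviations of paired libraries correlated by 0.342 to 0.765 over 30 pairs, and the replicate block fit, with a term for each line, was an alternative. Replicates differed beyond sampling noise (chi-square per degree of freedom at least 5.61). Other alternatives were RLE factors, no filter, no robust prior (added), DESeq2 1.42.0, a random block in limma 3.58.1, compared groups alone, the E1 or E2 part of the line name, and leaving out lines, also with the block (added). Added ones were chosen after seeing the data. The test was tried on simulated data. Floors of 3 counts cover counting error only. All 10 genes are counted in each comparison, and values are given for part of them. Of the pathway lists, up to 8 genes that passed with the smallest p are named. The genes and lists were chosen with earlier results of these data known.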

Additional observations from a re-analysis of the deposited data

Results flagged for a closer look

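Het line E2.5 lay far from the other 3 het lines in 3 of 30 sets of 4 libraries, where about 1 in 20 sets would be marked by chance in a test of this kind. Mlkl in E2.5 under pI:pC stood at 88.9 CPM, against 16.6 to 26.6 CPM in the other het lines. Tnfsf10 in E2.5 stood at 29.2 CPM under pI:pC, against 1.32 to 6.05 CPM, and at 1.48 CPM untreated, against 0 to 0.132 CPM. The summed level of the epithelial markers was also highest in E2.5, at 88.6 CPM under pI:pC. Its part in these levels was not tested.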

How the results depend on the processing

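Counts of the 10 genes called moved mostly with the pairing by line. With the replicate block the count under pI:pC was 2 in hom, 5 in het and 4 in WT lines, against 0, 1 and 1 without it, where the 1 was Tnfsf10. The block also raised the share of all genes called, from 1.26%, 4.63% and 3.17% to 9.27%, 17.3% and 15%. Under AO the count was 2, 2 and 1 with the block, against 0 in each without it. There the share of all genes called rose from 13%, 11.1% and 7.65% to 28.4%, 26.8% and 22%. A random block gave 5 in het lines under pI:pC. In the compared groups alone the count was 0 in het and 3 in WT lines under pI:pC and 1 between hom and WT lines under pI:pC, where 0.931% of all genes passed. With no filter it was 0 in WT lines under pI:pC. DESeq2 called 1 between hom and WT lines untreated (0.152% of all genes) and 1 under pI:pC (0.76%), against 0 in edgeR. Leaving out 1 line gave 0 to 2 in het lines and 0 to 0 in WT lines under pI:pC. Within the block, leaving out 1 line gave 5 in het lines, 2 to 3 in WT lines and 0 to 2 in hom lines under pI:pC. No share over all genes is given for the other counts, so they do not show whether these 10 genes moved apart from the rest. The cause of these moves was not tested, apart from fewer lines when 1 is left out. RLE factors, the prior without robust weights and, between genotypes, the E1 or E2 part of the line name moved no count, and the 6 genes called by density stayed 6 in number under DESeq2, RLE factors and no filter, and the block changed no call of the difference between genotypes. Fits of hom against WT lines in a block of lines were not possible, since a line has 1 genotype. Depth limits Zbp1 and Tnfsf10, which had no count in some libraries.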
